A study of Mus musculus with 4 samples.

Results

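The 10 genes described here encode partners that dimerize, or bind side by side, on composite DNA sites in activated T cells. They are Batf (ENSMUSG00000034266), Batf3 (ENSMUSG00000026630), Irf4 (ENSMUSG00000021356), Irf8 (ENSMUSG00000041515), Jun (ENSMUSG00000052684), Junb (ENSMUSG00000052837), Jund (ENSMUSG00000071076), Fos (ENSMUSG00000021250), Fosb (ENSMUSG00000003545) and Fosl2 (ENSMUSG00000029135). They were chosen by name, with earlier results of these data known. All 10 are among the 35275 Ensembl gene IDs of the deposited table. RNA was sequenced from mouse double-negative regulatory T cells, which are T cells with an αβ receptor and neither CD4 nor CD8. 2 libraries came from cells of OX40-knockout mice and 2 from wild-type mice, all of strain C57BL/6. In both groups the cells had been converted from naive CD4 T cells, and the sort kept CD3+ TCRαβ+ cells that lacked NK markers, CD4 and CD8. The labels name no further allele, treatment, time or age, do not say which part of Tnfrsf4, the OX40 gene, was removed, and do not state whether each library is a separate animal or culture. P-values therefore reflect the spread of these 4 libraries alone, and that spread could be technical.

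AP-1 is a dimer of basic leucine zipper (bZIP) proteins, typically a JUN protein with a FOS protein. BATF and BATF3 have the zipper but lack the activation domains of FOS proteins, and in T cells they pair with JUN proteins. IRF4 and IRF8 bind weakly to DNA by themselves and join BATF-JUN dimers on sites where an AP-1 motif lies next to an interferon response motif. Fos and Fosb are transcribed within minutes of a stimulus and their RNA is short-lived, whereas Batf, Irf4 and Fosl2 stay on for longer in stimulated T cells.

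Values are RPKM, reads scaled by gene length and by the total of the library. Levels compare between genes only as far as the lengths used hold, and the annotation behind them is not stated. For Jund the values fitted a length of 2878 bases, against 1668 for its longest annotated transcript. The totals behind them were 22220888 and 22571186 reads for OX40-knockout 1 and 2, and 23215528 and 24395743 reads for wild-type 1 and 2. Tnfrsf4 itself was read in all 4 libraries, at 12.1 and 9.38 RPKM in the knockout and 18.2 and 12.3 RPKM in the wild-type pair, and did not pass the test (limma adjusted p = 0.975). With limma on log2(RPKM + 1), 0 of the 11625 genes tested (mean 1 RPKM or more) had an adjusted p under 0.05 (0.0%). At an unadjusted p under 0.05 there were 162 (1.39%), and limma-voom on recovered reads gave 0 and 129. OX40-knockout 1 stood apart from the other 3 libraries and its values moved with GC content. Its median deviation from the 4-library mean was -0.18 (log2) in the lowest of 5 equal GC classes and 0.21 in the highest. Of 9 B and plasma cell markers, 6 were under 1 RPKM in every library, Ms4a1 and Pax5 among them at 0, while Ighm was at 21.9 and 10.2 RPKM in the knockout and 12.9 and 11.5 RPKM in the wild-type pair and Cd79b at 4.11 and 2.13 against 2.39 and 1.59 RPKM. Among dendritic cell markers, Siglech was at 0, Clec9a at most 0.0327 RPKM and Flt3 at most 0.0315 RPKM, while Xcr1 was at 1.09 and 0.726 RPKM in the knockout and 0.803 and 0.423 RPKM in the wild-type pair. In bulk RNA, fewer cells of a type and less RNA per cell cannot be told apart.

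All 10 genes passed the filter on low values. Irf8 had the highest mean over the 4 libraries, at 419 RPKM, followed by Junb at 236 RPKM and Jund at 153 RPKM. Jun averaged 75.2 RPKM, Fos 47.2 RPKM, Fosl2 41.3 RPKM and Batf 32.1 RPKM. Batf3, at 16.4 RPKM, Fosb, at 15.7 RPKM, and Irf4, at 7.53 RPKM, were the lowest. The order held within the JUN genes in each library, where Junb was between 1.43 and 1.71 times Jund and Jund between 1.96 and 2.16 times Jun. Elsewhere neighbours overlapped across libraries: Irf8 with Junb, Junb with Jund, Jun with Fos, Fos with Fosl2, Fosl2 with Batf, Batf3 with Fosb and Fosb with Irf4. The genes also varied in different ways. Fos and Fosb split by replicate number, 5 genes were high in OX40-knockout 1, Batf3 and Junb separated the genotypes, and Fosl2 was the most even, with its highest library 1.32 times its lowest.

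**Figure D1:**
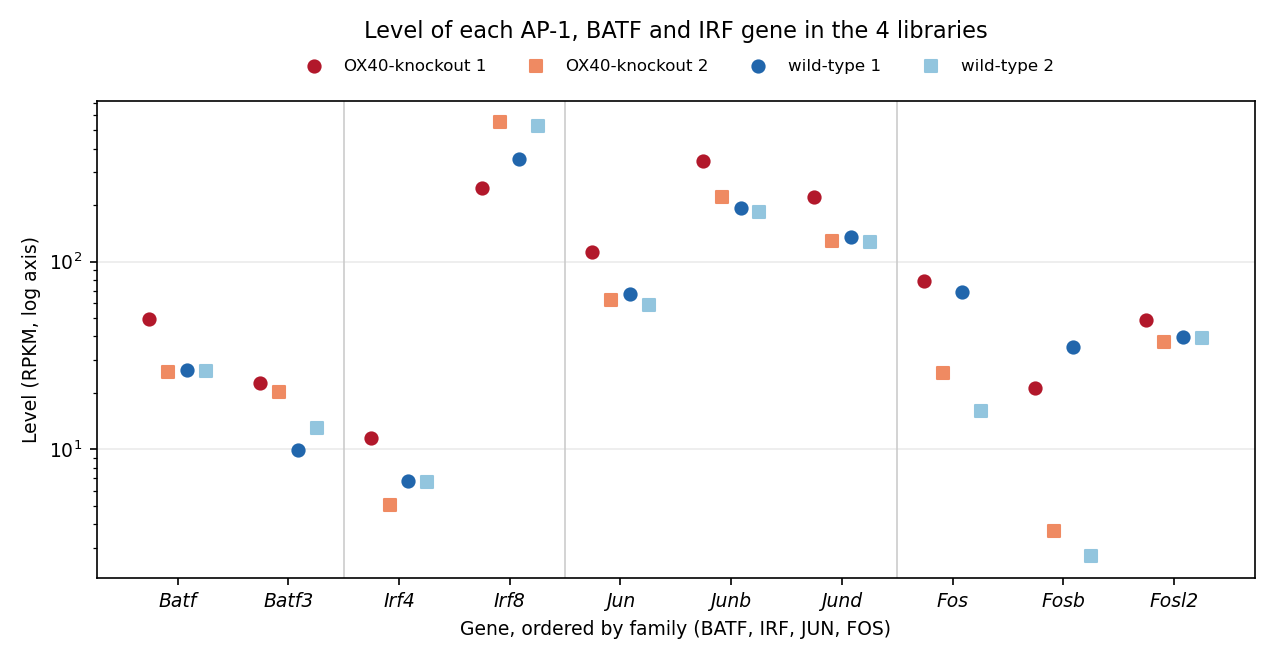
Level of each of the 10 genes on a log axis in RPKM, 1 point per library, with circles for replicate 1 and squares for replicate 2. For Fosb both circles (21.1 and 35.2 RPKM) lie far above both squares (3.67 and 2.7 RPKM), and for Batf3 both knockout points (22.7 and 20.2 RPKM) lie above both wild-type points (9.98 and 13 RPKM).

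Fos and Fosb encode the classical inducible partners of JUN. Fos stood at 78.5 and 25.5 RPKM in OX40-knockout 1 and 2, and at 68.6 and 16.1 RPKM in wild-type 1 and 2. Both libraries numbered 1 were high and both numbered 2 were low, and the genotypes overlapped. Replicate 1 was 3.08 times replicate 2 in the knockout and 4.26 times in the wild-type. Fosb stood at 21.1 and 3.67 RPKM in OX40-knockout 1 and 2, and at 35.2 and 2.7 RPKM in wild-type 1 and 2. Its ratio of replicate 1 to replicate 2 was 5.74 in the knockout and 13 in the wild-type. Counting error was far smaller than this gap, with exact 95% Poisson intervals of 20.1 to 22.1 and 3.28 to 4.11 RPKM in the knockout and 34 to 36.5 and 2.37 to 3.06 RPKM in the wild-type pair.

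Among all tested genes, 35 (0.301%) were at least 2-fold higher in replicate 1 than in replicate 2 in both genotypes, and Fos and Fosb are 2 of these. Ranked by the smaller of the 2 differences on the log2(RPKM + 1) scale, Fosb had rank 1 and Fos rank 3 of 11625. In the opposite direction, 123 genes (1.06%) were at least 2-fold higher in replicate 2 in both genotypes, with 0 of the members among them. The labels do not say what a replicate number stands for, so it cannot be called a batch. Within a replicate number, Fos was higher in the knockout than in the wild-type, by 1.14 times in replicate 1 and 1.58 times in replicate 2. Fosb was 0.599 times the wild-type value in replicate 1 and 1.36 times in replicate 2. The balance of the pair also varied: Fosb was 0.268 and 0.144 times Fos in the knockout libraries and 0.513 and 0.168 times Fos in the wild-type libraries. Over genotype, the log2 change was 0.41 for Fos (95% interval -1.78 to 2.6) and -0.19 for Fosb (-3.56 to 3.19). Neither passed (limma adjusted p = 0.975 and 0.988), and these intervals hold changes of several fold in both directions.

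**Figure D2:**
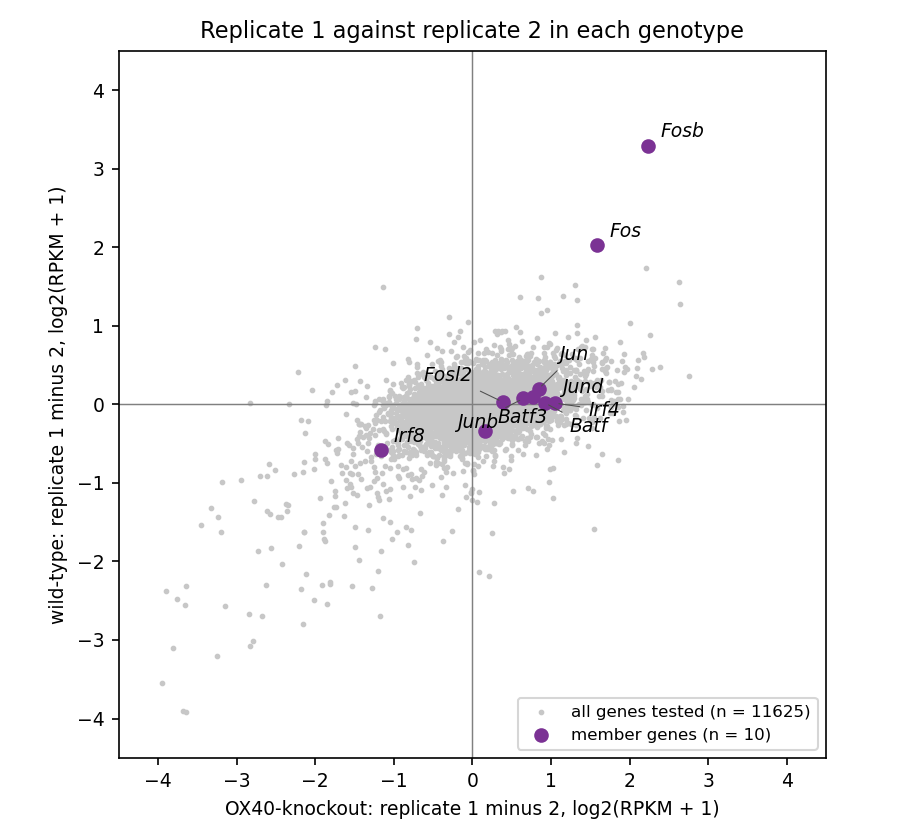
Difference of replicate 1 minus replicate 2 in log2(RPKM + 1), knockout on the horizontal and wild-type on the vertical axis, for the 11625 genes tested (grey; 1 lies outside the axes) and the 10 members (purple). Fosb and Fos lie far out in the upper right, where replicate 1 was higher in both genotypes, and Irf8 lies at the lower left.

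Because Fos and Fosb varied together, the 250 bases before their annotated starts are shown, from RefSeq on build GRCm38.p6. Fos lies at chr12:85473640-85473889 (+ strand) and Fosb at chr7:19310046-19310295 (- strand). Capitals mark TGACG (the core of the cyclic AMP response element), GGGCGG (the GC box bound by SP1) and TATAAA, each searched on both strands.
Fos: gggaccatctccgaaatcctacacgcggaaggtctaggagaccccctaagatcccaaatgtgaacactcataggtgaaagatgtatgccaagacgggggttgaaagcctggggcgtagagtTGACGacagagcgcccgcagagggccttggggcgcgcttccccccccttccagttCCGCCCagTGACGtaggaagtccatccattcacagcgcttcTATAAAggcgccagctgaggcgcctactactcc
Fosb: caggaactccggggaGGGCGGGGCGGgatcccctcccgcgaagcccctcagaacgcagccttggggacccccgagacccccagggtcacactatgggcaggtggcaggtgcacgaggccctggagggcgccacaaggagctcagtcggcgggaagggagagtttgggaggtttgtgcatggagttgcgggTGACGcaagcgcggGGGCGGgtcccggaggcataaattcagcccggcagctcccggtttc
TGACG occurs in Fos at -129 to -125 and -66 to -62 and in Fosb at -60 to -56, counted back from the start. Fosb also holds a pair of GGGCGG copies that share a base, at -235 to -230 and -230 to -225. TGACG, which is contained in the full element TGACGTCA, is in 4 of the 11 member promoters (those of Fos, Fosb, Junb and Batf) and in 17.8% of all 32851 promoters of that length. Irf8 has 2 promoters in that set. TATAAA is in the Fos window at -33 to -28 and in 12.4% of all promoters. The full AP-1 motif TGANTCA, in 6.75% of all promoters, and the full element TGACGTCA, in 1.55%, are in none of the 11 windows, and neither is the CArG box of serum response factor, in 1.47%. A match is a run of letters and no evidence of binding, and sites outside these windows were not searched.

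The genes most like Fos were sought among 8879 named genes averaging 5 RPKM or more, by the root mean square distance between deviations over the 4 libraries on the log2(RPKM + 1) scale. Apol8 was nearest (0.3), at 12.6 and 4.5 RPKM in the knockout and 7.09 and 1.82 RPKM in the wild-type pair. Atf3, a stress-induced bZIP factor that pairs with JUN proteins, was second (0.38), at 37.4 and 16.2 RPKM in the knockout and 20.9 and 7.44 RPKM in the wild-type pair. Map6, 2010005H15Rik and Enah followed, at distances of 0.38, 0.4 and 0.41. Picked for their nearness to Fos over these same libraries, all 5 were higher in both libraries numbered 1 than in both numbered 2.

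Fosl2, which encodes the FOS relative FRA2, did not share this pattern. It stood at 49 and 37.3 RPKM in the knockout libraries and at 39.9 and 39 RPKM in the wild-type pair. Without OX40-knockout 1 the other 3 libraries were within 1.07 times of each other. The log2 change was 0.11 (SE 0.16, 95% interval -0.3 to 0.53, limma adjusted p = 0.975).

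The JUN genes encode the obligate partners in most of these dimers. Jun stood at 112 and 62.1 RPKM in the knockout libraries, against 67.6 and 58.9 RPKM in the wild-type pair. Jund, the JUN gene that resting cells also express, stood at 220 and 129 RPKM in the knockout libraries, against 136 and 127 RPKM in the wild-type pair. Both genes were highest in OX40-knockout 1, while OX40-knockout 2 lay among or close to the wild-type values. Junb, whose product pairs with BATF in T helper cells, stood at 345 and 220 RPKM in the knockout libraries, against 194 and 184 RPKM in the wild-type pair. Its groups did not overlap, which held for 8.66% of all tested genes in this direction. The log2 changes were 0.4 for Jun (SE 0.3), 0.54 for Junb (SE 0.23) and 0.35 for Jund (SE 0.27), each with a limma adjusted p of 0.975. Without OX40-knockout 1 they were -0.02, 0.22 and -0.03.

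The JUN genes varied together, and their RNAs stood in similar proportions in all 4 libraries. Jun made up between 15.1% and 17% of the summed JUN RPKM, Junb between 48.8% and 53.6% and Jund between 31.3% and 34.4%. Junb alone was higher in both knockout libraries as a share, at 51% and 53.6% in the knockout and 48.8% and 49.7% in the wild-type libraries. Exons of Jun overlap the opposite-strand gene Junos (between 4.53 and 6.25 RPKM) and exons of Junb overlap Prdx2 (between 60.4 and 70.7 RPKM). How the counting treated strand is not stated, so some reads of these genes may be shared.

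5 of the 10 genes, Batf, Irf4, Jun, Junb and Jund, were at least 1.5 times as high in OX40-knockout 1 as in each of the other libraries, against 6.06% of all tested genes. 0 of the 10 were as far below (3.95% of tested genes), although Irf8 in that library was 0.701 times the next lowest value. This fold was set with the values known. The member transcripts were also rich in GC: 9 of the 10 lay in the upper 2 of the 5 GC classes, and Irf4, at 52.1%, in the middle one. After a loess correction for GC content, the deviation of OX40-knockout 1 from the 4-library mean was 0.22 for Jund, against 0.56 as deposited, and 0.29 for Junb, against 0.6. For Batf it was 0.54 against 0.67, for Jun 0.49 against 0.62 and for Irf4 0.58 against 0.61. Corrected values of OX40-knockout 1 thus stayed above the mean for these 5 genes, but Jund was then only 0.08 (log2) above the next library and Junb 0.23. The log2 change of Jund was 0.06 after the correction and that of Junb 0.34. OX40-knockout 1 also held the most RNA of the CD4 and CD8 coreceptors, all 3 of them tested, which summed to 31.1 and 13.1 RPKM in the knockout and 14.6 and 14.9 RPKM in the wild-type pair. The 9 B and plasma cell markers, of which 3 were tested and 6 were under 1 RPKM everywhere, summed to 27.7 and 14.6 RPKM in the knockout and 16.7 and 15.2 RPKM in the wild-type pair. The part of such RNA in these 5 genes was not tested.

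**Figure D3:**
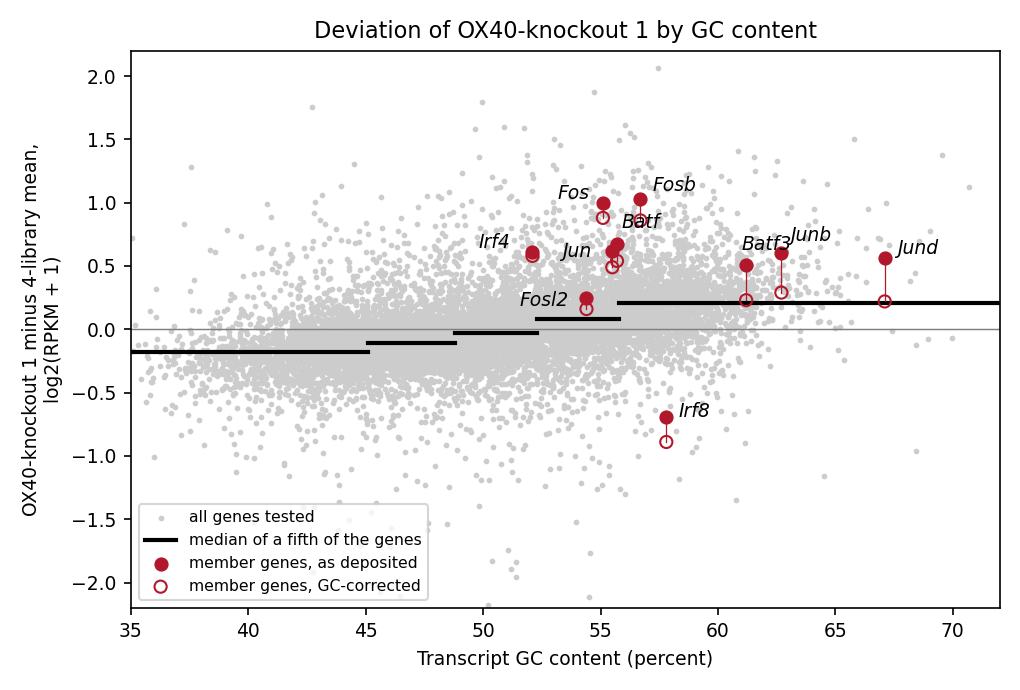
Deviation of OX40-knockout 1 from the 4-library mean of log2(RPKM + 1), by transcript GC content in percent, for the tested genes within the axes (grey), with black bars at the median of each of 5 equal classes. Filled red points are the 10 members as deposited and open points are the same genes after the GC correction, which puts Jund at 0.22 (0.56 as deposited) and Irf4 at 0.58 (0.61 as deposited). 21 genes lie outside the axes.

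The upstream windows of Jun and Junb are shown because JUN proteins act on the Jun gene itself and because Junb was the JUN gene that separated the genotypes. They lie at chr4:95052223-95052472 (- strand) and chr8:84978749-84978998 (- strand), RefSeq, GRCm38.p6. Capitals mark TGACATCA, the AP-1-like site known from the Jun promoter, together with TGACG and GGGCGG, on both strands.
Jun: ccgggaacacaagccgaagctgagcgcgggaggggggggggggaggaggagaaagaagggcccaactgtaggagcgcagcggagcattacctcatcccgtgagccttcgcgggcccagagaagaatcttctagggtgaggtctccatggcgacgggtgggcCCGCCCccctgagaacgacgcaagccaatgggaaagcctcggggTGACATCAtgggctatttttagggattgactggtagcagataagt
Junb: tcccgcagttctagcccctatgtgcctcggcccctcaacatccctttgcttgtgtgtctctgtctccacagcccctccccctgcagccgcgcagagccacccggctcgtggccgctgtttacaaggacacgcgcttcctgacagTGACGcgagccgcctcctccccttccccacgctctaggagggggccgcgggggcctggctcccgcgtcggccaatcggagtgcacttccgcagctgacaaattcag
TGACATCA occurs in Jun at -45 to -38. It is in 2.93% of all promoters and in no other member promoter. Junb holds TGACG at -106 to -102.

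Batf and Batf3 encode small bZIP proteins that serve as JUN partners in T cells and, for BATF3, in cross-presenting dendritic cells. Batf3 stood at 22.7 and 20.2 RPKM in the knockout libraries, against 9.98 and 13 RPKM in the wild-type pair. Both knockout libraries were higher than both wild-type libraries, and the exact 95% Poisson intervals of the groups did not meet: 20.4 to 25.2 and 18 to 22.5 RPKM against 8.52 to 11.6 and 11.3 to 14.8 RPKM. The ratio of knockout to wild-type was 2.27 within replicate 1 and 1.56 within replicate 2. The log2 change was 0.85 (SE 0.17, 95% interval 0.42 to 1.29), the largest of the 10 genes. It did not pass when adjusted over all genes (limma adjusted p = 0.975, unadjusted p = 0.0042), and it was 0.68 after the GC correction. Without each library in turn it lay between 0.68 and 1.03.

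Batf stood at 49.7 and 25.7 RPKM in the knockout libraries, against 26.6 and 26.2 RPKM in the wild-type pair. Only OX40-knockout 1 was high, and the other 3 libraries were within 1.03 times of each other. The log2 change of 0.43 (SE 0.32, limma adjusted p = 0.975) was -0.03 without that library. Batf3 therefore made up a larger share of the summed BATF RPKM in OX40-knockout 2, at 43.9%, than in OX40-knockout 1, at 31.3%. In wild-type 1 and 2 the share was 27.3% and 33.1%, so the genotypes overlapped in this measure.

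**Figure D4:**
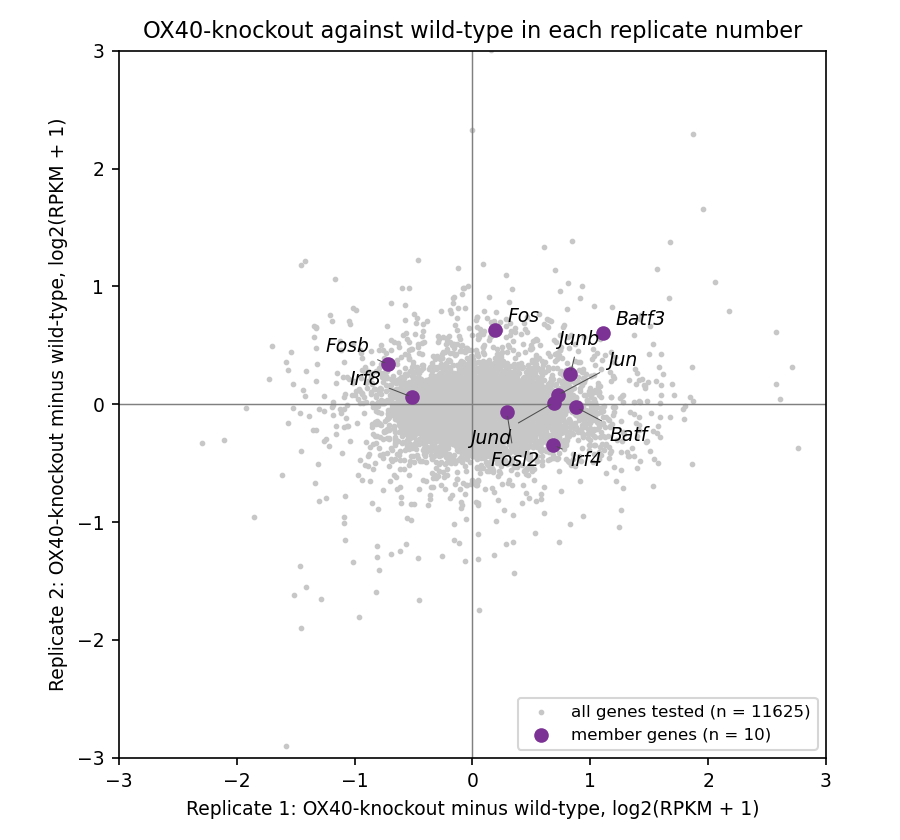
Difference of knockout minus wild-type in log2(RPKM + 1), within replicate 1 on the horizontal and within replicate 2 on the vertical axis, for the 11625 genes tested (grey; 4 lie outside the axes) and the 10 members (purple). Batf3 lies in the upper right, higher in the knockout within both numbers, while Batf, Jun and Jund lie near 0 on the vertical axis.

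The window before Batf3 is shown because this gene separated the genotypes most. It lies at chr1:191098164-191098413 (+ strand), RefSeq, GRCm38.p6, and capitals mark GGGCGG on either strand.
Batf3: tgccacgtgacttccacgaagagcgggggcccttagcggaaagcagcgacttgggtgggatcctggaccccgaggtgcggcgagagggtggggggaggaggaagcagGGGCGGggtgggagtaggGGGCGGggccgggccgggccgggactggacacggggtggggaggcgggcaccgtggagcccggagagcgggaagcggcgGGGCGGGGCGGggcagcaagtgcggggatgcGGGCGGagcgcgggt
It holds 5 copies of GGGCGG, of which 2 share a base, and 76% of its bases are G or C, against a median of 52.4% over all promoters. GGGCGG is in 32.7% of all promoters and in those of 8 of the 10 genes.

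Among the genes most like Batf3 over the 4 libraries were mt-Atp8 (distance 0.08), Tnfrsf8 (0.17), Papss1 (0.18) and Ifng (0.18). As these genes were picked for their nearness to Batf3 over these same libraries, their higher knockout values follow from that choice. Tnfrsf8, which encodes the receptor CD30 of the TNF receptor family, stood at 67.7 and 67.2 RPKM in the knockout and 41.2 and 52 RPKM in the wild-type pair. Ifng, encoding interferon gamma, stood at 60.5 and 56.2 RPKM in the knockout and 37.3 and 45.2 RPKM in the wild-type pair. mt-Atp8 overlaps a neighbouring mitochondrial gene, so its reads may be shared with that gene.

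Irf4 and Irf8 encode the IRF partners of BATF-JUN dimers. Irf8 stood at 246 and 551 RPKM in the knockout libraries, against 351 and 528 RPKM in the wild-type pair. Both libraries numbered 2 were higher than both numbered 1, and the genotypes overlapped. The ratio of replicate 1 to replicate 2 was 0.447 in the knockout and 0.665 in the wild-type, opposite to Fos and Fosb. NK cells also express Irf8, and all 6 genes of an NK and NKT list were tested. Their summed level was 140 and 341 RPKM in the knockout libraries and 234 and 365 RPKM in the wild-type pair. Ncr1, which encodes the NK receptor NKp46, stood at 0.183 and 7.49 RPKM in the knockout and 0.408 and 7.93 RPKM in the wild-type pair, and Klra8 at 0.382 and 8.8 against 0.475 and 11.4 RPKM. Klrb1c, Klre1 and Eomes were also higher in replicate 2 of each genotype. Klrb1c was at 42.8 and 159 RPKM in the knockout and 98.5 and 160 RPKM in the wild-type pair. Eomes was at 75.5 and 133 RPKM in the knockout and 114 and 150 RPKM in the wild-type pair. Zbtb16, the factor PLZF of NKT cells, went the other way, at 10.9 and 1.78 RPKM in the knockout and 2.64 and 1.63 RPKM in the wild-type pair. The part of NK-type RNA in the level of Irf8 was not tested. The log2 change of Irf8 was -0.23 (SE 0.43, 95% interval -1.35 to 0.9, limma adjusted p = 0.975), and 0.35 without OX40-knockout 1.

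Irf4, whose RNA level follows the strength of T cell receptor signals, was the lowest of the 10 genes. It stood at 11.5 and 5.07 RPKM in the knockout libraries, against 6.79 and 6.7 RPKM in the wild-type pair. The knockout libraries lay on either side of the wild-type values, and the exact 95% Poisson intervals of OX40-knockout 2 (4.65 to 5.51 RPKM) and of wild-type 2 (6.24 to 7.19 RPKM) did not meet. The log2 change was 0.17 (SE 0.36, limma adjusted p = 0.975), and -0.35 without OX40-knockout 1. Irf8 exceeded Irf4 by 21.3 and 109 times in the knockout libraries and by 51.8 and 78.8 times in the wild-type libraries. Dendritic cells and macrophages use Irf8 too. Of a list of 15 dendritic and myeloid markers, 7 were tested and 5 were under 1 RPKM everywhere. The list summed to 302 and 188 RPKM in the knockout and 215 and 204 RPKM in the wild-type pair, most of it from Cst3 and the class II gene H2-Ab1. H2-Ab1 was at 163 and 65.5 RPKM in the knockout and 88.7 and 69.5 RPKM in the wild-type pair. Cd74 was instead highest in wild-type 2, at 4.76 and 3.38 RPKM in the knockout and 4 and 7.71 RPKM in the wild-type pair. Csf1r was at most 0.182 RPKM. The macrophage marker Adgre1 was at 0.424 and 1.25 against 0.135 and 1.88 RPKM. Itgax, Itgam, Cd14, Lyz2 and Zbtb46 were also higher in replicate 2 of each genotype. Itgam, for example, was at 0.957 and 3.19 RPKM in the knockout and 1.21 and 3.72 RPKM in the wild-type pair. Cst3, H2-Ab1, Ccr7 and Xcr1 were instead higher in replicate 1 of each genotype. The part of such cells was not tested.

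Summed by family, the JUN genes stood at 677 and 411 RPKM in the knockout and at 397 and 370 RPKM in the wild-type pair. The FOS genes stood at 149 and 66.4 RPKM in the knockout and at 144 and 57.8 RPKM in the wild-type pair. JUN RNA thus exceeded FOS RNA in every library. Within the FOS genes, Fosl2 made up 33% and 56.1% of the sum in the knockout libraries and 27.7% and 67.5% in the wild-type libraries, the larger share being in both libraries numbered 2. Fosb made up 14.2% and 5.53% in the knockout and 24.5% and 4.67% in the wild-type libraries. The BATF genes summed to 72.4 and 45.9 RPKM in the knockout and 36.5 and 39.2 RPKM in the wild-type pair. These groups did not overlap, and the gap between OX40-knockout 2 and wild-type came from Batf3.

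**Figure D5:**
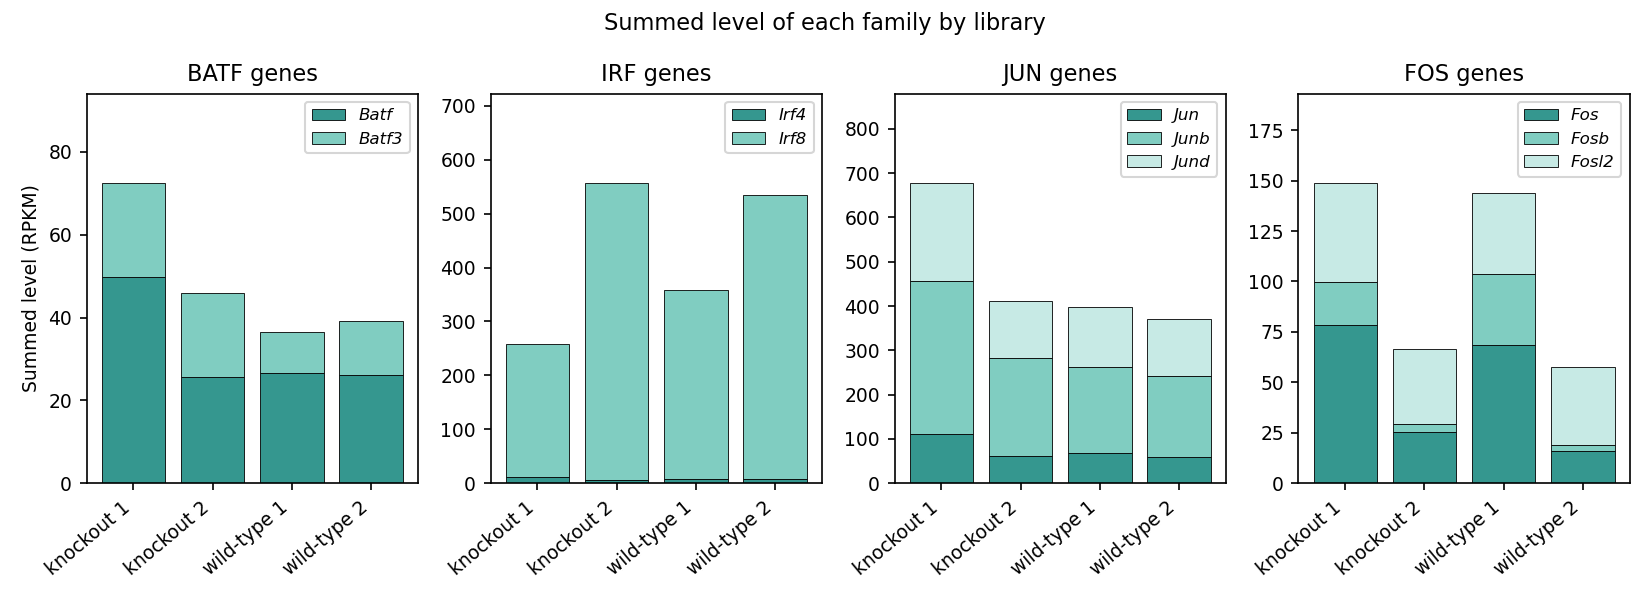
Summed RPKM of the BATF, IRF, JUN and FOS genes in each library, with the part of each gene stacked in the bar. The FOS bars are tall in both libraries numbered 1 (149 and 144 RPKM), the JUN and BATF bars are tallest in OX40-knockout 1, and Irf8 makes up at least 95.5% of each IRF bar.

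Across the 10 genes, 8 had a log2 change above 0, against 43.4% of all tested genes, and their median was 0.38, against -0.03 for all tested genes. 0 passed the limma test, and at an unadjusted p under 0.05 there was 1, Batf3 (0.551% of tested genes passed this and were higher in the knockout, and 0.843% were lower). 2 genes, Batf3 and Junb, had groups that did not overlap and were higher in the knockout (8.66% of tested genes), and 0 were lower (17.8% of tested genes). 5 genes, Batf3, Jun, Junb, Jund and Fos, were higher in the knockout within both replicate numbers, against 16.1% of tested genes. For Jun and Jund the ratio within replicate 2 was only 1.06 and 1.01. The members share OX40-knockout 1 and a high GC content, so they are not independent of each other.

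Of 23 other bZIP genes that can pair with these proteins, 21 were tested and 0 passed. On average 13 were higher in the knockout, against 43.4% of all tested genes. Their median log2 change was 0.06. Atf5, of the ATF4 stress response, was the gene with the largest positive change among those that averaged 5 RPKM or more and whose groups did not overlap, at 22.4 and 15.9 RPKM in the knockout and 14 and 14.5 RPKM in the wild-type pair, and Nfe2l1 was at 81.6 and 82.1 against 77.8 and 81.5 RPKM. Atf7 and Atf1, relatives that bind cyclic AMP response elements, were lower, with Atf7 at 25.2 and 28.8 RPKM in the knockout and 31 and 32.6 RPKM in the wild-type pair and Atf1 at 126 and 132 against 143 and 134 RPKM. Among 15 other IRF genes and partners, 12 were tested, 8 were higher (against 43.4% of all tested genes), 0 passed, and the median was 0.16. 5 of these 12 were at least 1.5 times as high in OX40-knockout 1 as elsewhere, against 6.06% of all tested genes. Irf2bp1, an IRF2-binding protein, was at 12.4 and 8.12 RPKM in the knockout and 8.08 and 8.04 RPKM in the wild-type pair, and Ikzf1, the lymphoid factor Ikaros, at 133 and 136 against 137 and 143 RPKM.

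Upstream of AP-1, MAP kinases and the SRF and ELK factors carry receptor signals to the Fos promoter. All 19 such genes were tested, with 10 higher (against 43.4% of all tested genes), 9 lower, 0 past the test and a median of 0.02. Elk4 was at 43.1 and 48.1 RPKM in the knockout and 53.2 and 55.8 RPKM in the wild-type pair, and Mapk8, which encodes the JUN kinase JNK1, at 6.19 and 7.18 against 7.42 and 7.72 RPKM. 4 of the 19 genes had groups that did not overlap and were lower in the knockout, against 17.8% of all tested genes, and 0 were higher, against 8.66%. Of 14 MAP kinase phosphatases and other feedback genes, 13 were tested and 0 passed. Of these, 8 were higher (against 43.4% of all tested genes), and the median was 0.02. Dusp10, a phosphatase that acts on JNK, was at 15 and 10.8 RPKM in the knockout and 8.09 and 9.58 RPKM in the wild-type pair, and Dusp5, an ERK phosphatase, at 133 and 109 against 103 and 88.3 RPKM. Fbxw7, which marks JUN for degradation, was at 9.49 and 11.8 RPKM in the knockout and 13.5 and 12.9 RPKM in the wild-type pair, and Spred1, a brake on ERK, at 13.2 and 15.4 against 17.7 and 15.9 RPKM.

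Of 28 T cell genes known as targets of AP-1, BATF or IRF4, 22 were tested and 0 passed. Of these, 19 were higher in the knockout, against 43.4% of all tested genes. The median was 0.3, against -0.03 for all genes. 7 of the 22 had groups that did not overlap and were higher, against 8.66% of all tested genes. 7 of the 22 were at least 1.5 times as high in OX40-knockout 1 as in each other library, against 6.06% of all tested genes. The list was chosen with earlier results of these data known, so these shares only describe it. Il10, an inhibitory cytokine, was at 25.2 and 9.4 RPKM in the knockout and 7.23 and 4.57 RPKM in the wild-type pair. Il22, a cytokine that acts on epithelium, was at 50.2 and 44.1 RPKM in the knockout and 26.2 and 23.1 RPKM in the wild-type pair. Their log2 changes were 1.29 (SE 0.48) and 0.91 (SE 0.13), with a limma adjusted p of 0.975 each. Ikzf2, encoding Helios, was the 1 tested target lower in the knockout without overlap, against 17.8% of all tested genes. It stood at 69.8 and 75.2 RPKM against 92.9 and 86.2 RPKM in the wild-type (limma adjusted p = 0.975). Il2, a classical AP-1 target, was at most 0.271 RPKM in any library.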

How the data were processed

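Per the labels' protocols, total RNA went into Illumina TruSeq libraries. Bowtie 0.12.2 and build mm8 are named in the submitters' processing notes. For the annotation, the counting tool and strand, a statement is not given in these sources. The authors deposited 1 table of RPKM values, whose header names no unit. The unit was settled from the values: the low values of single-transcript genes fitted 1 read over the annotated length, and this yielded each library's total. Whole reads, within 0.005 read in every library, were then found for 20995 of 20996 genes above 0, taking the length nearest the annotated mean. Summed over genes, the recovered reads came to between 102.19% and 102.24% of each library's total, and the reason for this excess was not tested. A common multiple stays undecided for some genes: the reads of Irf8 may be a multiple of those used, and Poisson intervals cover counting error only.

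Symbols, transcript lengths and GC content came from GENCODE vM21 (GRCm38), which names 34490 of the IDs; promoters came from RefSeq (GRCm38.p6). These builds differ from mm8, so no coordinates are given for the measured values. log2(RPKM + 1) was fitted with limma 3.58.1 (R 4.3.3, empirical Bayes with trend, no block) in all 4 libraries over the 11625 genes that averaged 1 RPKM or more. P-values were adjusted by Benjamini-Hochberg over all of them, with a threshold of 0.05, and log2 changes understate those of low genes. The smallest exact permutation p for 2 libraries against 2 is 0.333. The GC correction subtracted a loess curve (span 0.5) of each library's deviation on GC content. The scripts were tested on simulated data. The members and lists were chosen with earlier results of these data known. Related genes were named by a rule: up to 2 per direction and list with the largest change among genes averaging 5 RPKM or more whose groups stood apart. Markers, Il2, Tnfrsf4 and the nearest genes to Batf3 and Fos were named beside it. 1 of the nearest genes to Batf3 is not reported here. Tables were handled in Python 3.11.15 (pandas 2.3.3, numpy 2.4.6) and plotted in matplotlib 3.10.9. Alternatives were another pseudocount (0.1), no filter, other scalings, the GC correction, a block, left-out libraries and limma-voom on recovered reads.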

Additional observations from a re-analysis of the deposited data

How the results depend on the processing

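Over 13 alternatives the 10 genes gave 130 log2 changes, of which 119 kept their direction, 11 changed it and 0 passed the threshold. Every change of direction came from leaving out a library. The ranges over the left-out libraries were -0.03 to 0.89 for Batf, -0.35 to 0.7 for Irf4, -0.8 to 0.35 for Irf8, -0.02 to 0.82 for Jun, -0.03 to 0.74 for Jund, -0.6 to 1.42 for Fos, -1.83 to 1.46 for Fosb and -0.08 to 0.31 for Fosl2. Batf3 (0.68 to 1.03) and Junb (0.22 to 0.87) kept theirs. The count of genes past 0.05, 0 as reported, was 1 with quantile normalization, 0 to 1 with a library left out, 5 with the replicate block, 1 with the GC correction and the replicate block, and 12 with limma-voom and the replicate block. The cause was not tested. Genes at an unadjusted p under 0.05 numbered 162 as reported. They were 524 without OX40-knockout 1, 3832 without OX40-knockout 2, 77 without wild-type 1 and 76 without wild-type 2, 373 under the replicate block and 603 when unfiltered. With the replicate block the limma adjusted p of Batf3 was 0.482, within a range of 0.0708 to 1 over all alternatives. The difference of replicate 1 from replicate 2 had a correlation of 0.47 across genes between the genotypes; with 2 pairs and no label that ties the numbers, the libraries are taken to share only a number. The plain GC correction and the blocked voom fit were chosen after seeing the data. With 2 libraries a group, the intervals above set what the fit without a block can resolve. In that fit the split of Fos and Fosb by replicate number counts as spread within each group. With the replicate block the limma adjusted p of Fos and of Fosb was 0.995.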
